A study of Mus musculus with 6 samples.

Results

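The 10 genes described here encode some of the integrin chains that bind collagen, fibronectin and ligands with an RGD (arginine-glycine-aspartate) sequence. They are the alpha chain genes *Itga1*, *Itga2*, *Itga4*, *Itga5*, *Itga8*, *Itga9* and *Itgav* and the beta chain genes *Itgb5*, *Itgb6* and *Itgb8*. The rule that selects them names their symbols and sets no limit on a measured value. They are 10 of the 26 integrin subunit genes and of the 22295 genes in the count table. RNA was sequenced from 6 libraries of keratinocytes from the back skin of FVB mice, sorted by FACS for GFP. The 3 WT libraries came from K19(Cre-ERT); mTmG mice. The 3 KO libraries came from mice with the same K19(Cre-ERT) driver and mTmG reporter that also carried *Itga3* fl/fl, the floxed alleles of the α3 chain of the laminin receptor α3β1. All mice were given tamoxifen and short-term DMBA/TPA. The labels and the methods of the study differ on the tamoxifen course, the methods giving a weaker solution for injection, an earlier start and added topical doses. The labels give tamoxifen at 10 mg/ml over 4 days at 6 weeks of age, 1 dose of 30 μg DMBA in 200 μl acetone at 7 weeks, and then TPA at 12.34 μg per application, in the same volume, for the weeks that followed. DMBA is a mutagen that initiates skin tumors, and TPA is a phorbol ester that promotes them.

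As a model the groups have limits. Cre acts in cells that express keratin 19, which in the skin mark the hair bulge (HB), and GFP marks those cells together with their progeny, so each library holds a mixture of HB keratinocytes and descendants. The comparison asks which transcripts depend on α3β1 in these cells before tumors form. The libraries are called WT a to c and KO a to c, because the codes in the columns of the count table match the labels by genotype only, and the values of a group are given in that order.

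Integrins are heterodimers of 1 alpha and 1 beta chain that link the extracellular matrix to the actin cytoskeleton. The chains α1 and α2 pair with β1 to bind collagens, whereas α4, α5, α8 and α9 with β1 bind fibronectin or other matrix proteins. The αv chain pairs with β5, β6 and β8 among others, and its dimers bind RGD ligands such as vitronectin and, in the case of αvβ6 and αvβ8, the latency-associated peptide that holds TGF-β inactive. In skin, α2β1 and α3β1 are standing receptors of basal keratinocytes, αvβ6 is known for its rise in wounds, and α8β1 is known from the arrector pili muscle, which anchors to nephronectin laid down by the bulge.

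The sequences upstream of 3 genes are shown because these genes stand at different places in the results: *Itga4* is the only one of the 10 that passed the test between the genotypes, *Itgb5* had the highest level per length, and *Itgav* encodes the chain that the RGD-binding beta chains share. Each is the 250 bases before the start of the gene in RefSeq (build GRCm38.p6), on the plus strand, at chr2:79255176-79255425 for *Itga4*, chr2:83724147-83724396 for *Itgav* and chr16:33829415-33829664 for *Itgb5*. Capitals mark the GC box GGGCGG or its complement CCGCCC.
Itga4: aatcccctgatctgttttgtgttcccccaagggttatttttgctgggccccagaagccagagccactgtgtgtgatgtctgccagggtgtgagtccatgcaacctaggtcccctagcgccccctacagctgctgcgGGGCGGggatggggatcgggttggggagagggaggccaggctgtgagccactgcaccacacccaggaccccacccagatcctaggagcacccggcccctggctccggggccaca
Itgav: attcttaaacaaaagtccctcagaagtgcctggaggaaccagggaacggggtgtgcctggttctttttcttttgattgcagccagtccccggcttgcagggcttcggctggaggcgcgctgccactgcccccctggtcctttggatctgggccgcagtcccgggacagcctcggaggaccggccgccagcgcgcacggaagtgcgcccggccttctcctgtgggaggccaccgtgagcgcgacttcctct
Itgb5: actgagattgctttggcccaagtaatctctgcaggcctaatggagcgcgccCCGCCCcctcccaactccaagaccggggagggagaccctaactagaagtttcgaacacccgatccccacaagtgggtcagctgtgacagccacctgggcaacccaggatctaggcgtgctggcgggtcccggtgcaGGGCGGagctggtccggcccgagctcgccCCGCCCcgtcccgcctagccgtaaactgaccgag

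The *Itga4* window held 1 GC box, from 114 to 109 bases before the start, the *Itgb5* window held 3, and the *Itgav* window held none. Among all 11 windows of the 10 genes (*Itgb6* has 2 start sites), 3 held a GC box, against 32.7% of 32851 windows of the same length. The third gene with one was *Itga5*. RefSeq starts can differ from the gene coordinates of the count table. The windows of *Itga9* (chr9:118711442-118711691) and *Itgb8* (chr12:119238277-119238526) lay inside those coordinates, as did the *Itgb6* window at chr2:60673694-60673943. Neither the AP-1 motif TGANTCA (6.75% of all windows), the TEAD motif GGAATG (12.6%) nor the TATA box TATAAA (12.4%) was found in any of the 11, on either strand. A match describes the letters only, and the absence of one says nothing about a factor.

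Depth was 20578309 to 23670507 counts per library, and levels are given as CPM (counts per 1000000 counts of the library), scaled by TMM factors. A count of 3, used as the floor, corresponded to 0.128 to 0.145 CPM, which covers counting error only. *Itga3* itself was measured at 371, 252 and 271 CPM in WT and at 131, 124 and 134 CPM in KO, so the KO libraries held 43.4% of the WT mean (log2 fold change -1.20 ± 0.13, SE, edgeR quasi-likelihood adjusted p = 0.00283). By staining, the study reports efficient loss of α3β1 protein from GFP-positive keratinocytes of KO mice after tamoxifen. Whether the remaining *Itga3* RNA came from recombined or intact alleles was not tested. The summed keratinocyte and bulge markers were at 32852 to 49178 CPM in WT and 37875 to 43792 CPM in KO libraries, far above those of other cells: the highest sum of fibroblast markers was 459 CPM, and those of smooth muscle, endothelial, immune and melanocyte markers reached at most 14.4 CPM. Of the keratinocyte and bulge markers *Cd34* alone was called, lower in KO (853 ± 40.7 CPM in WT and 516 ± 113 CPM in KO, SD, n = 3, edgeR adjusted p = 0.0462), and it was not called with limma-voom (adjusted p = 0.119) or without WT b (edgeR adjusted p = 0.0685). In bulk RNA, fewer cells of a type and less RNA per cell cannot be told apart, and an RNA level is not a measure of receptor at the cell surface.

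One library stood apart. WT b had 22249 counts of *Xist*, the transcript of the inactive X chromosome, against 1 to 3 in the other 5, and 4 to 16 counts of each of the Y-linked genes *Ddx3y*, *Eif2s3y*, *Kdm5d* and *Uty*, against 676 to 2445. WT b thus had the pattern of a female and the others that of males, so the KO group was of 1 sex and the WT group was not. The labels give no sex. Values without WT b, an alternative chosen after seeing the data, are therefore given with the results. Without it edgeR called 123 of 21255 genes (0.579%).

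One of the 10 genes changed between the genotypes. *Itga4* was lower in KO, none was higher, and across all 21681 genes tested edgeR called 0.673% at an adjusted p below 0.05, of which 0.212% of the genes were lower and 0.461% higher in KO. The median log2 fold change of the 10 was -0.09, and it was -0.09 without *Itga9*, against 8.8e-05 for all genes. With limma-voom, which called 0.111% of all genes, none of the 10 passed, and 2 of them (*Itga2* and *Itga4*) had an unadjusted p below 0.05. With edgeR the unadjusted p was below 0.05 for 3, *Itga1*, *Itga2* and *Itga4*, all lower in KO. Of all 21681 genes, 2553 had an unadjusted p below 0.05 with limma-voom and 2503 with edgeR.

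**Figure D1:**
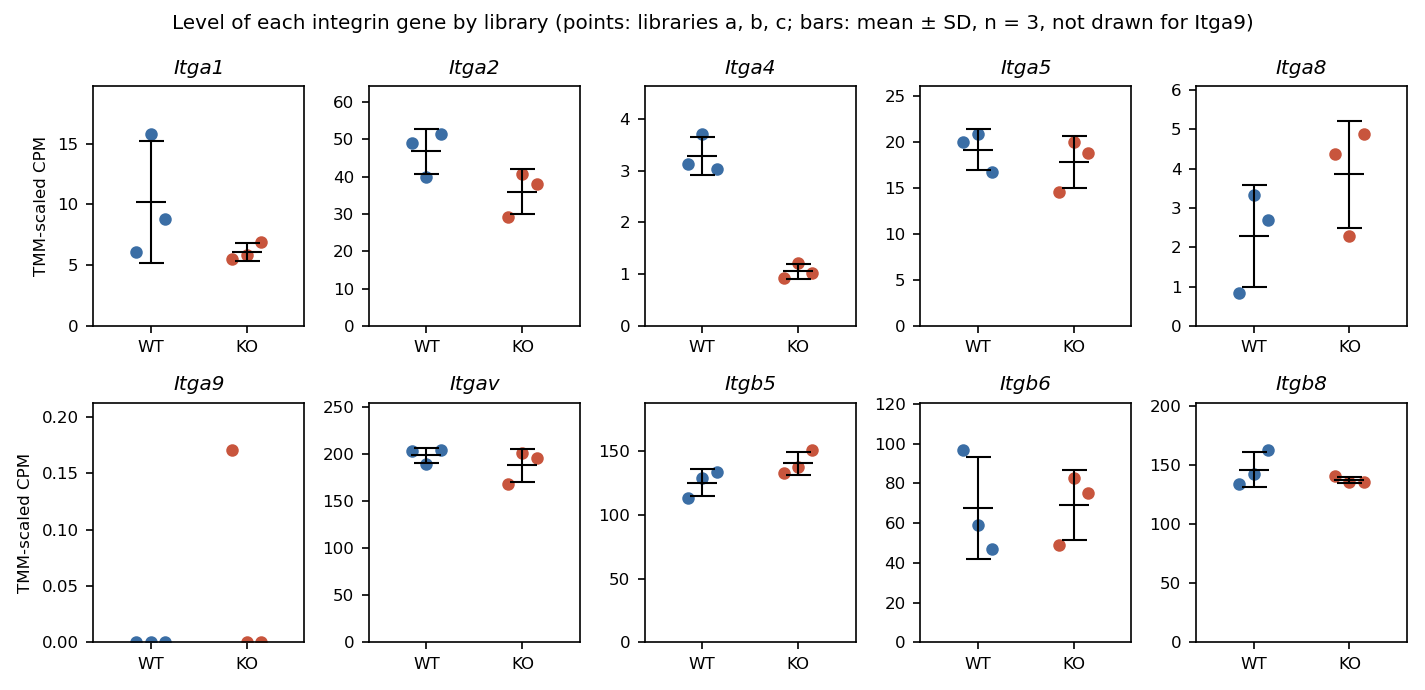
TMM-scaled CPM of the 10 integrin genes in the 3 WT and 3 KO libraries, 1 panel per gene with its own axis from 0. Points are libraries a, b and c from left to right and bars are the mean ± SD, except for *Itga9*, which has counts in KO a only. The groups are apart for *Itga4*, where WT lies between 3.04 and 3.71 CPM and KO between 0.935 and 1.22 CPM, and overlap for the others.

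Among the fibronectin receptors, *Itga4* (ENSMUSG00000027009, chromosome 2, 79255426 to 79333123, GRCm38) encodes α4, which with β1 binds fibronectin and VCAM-1 and is best known from leukocytes. Its counts were 68, 81 and 69 in WT and 22, 26 and 21 in KO, which are 3.12, 3.71 and 3.04 CPM against 0.935, 1.22 and 1.02 CPM. Every KO library was below every WT library, and KO stood at 32.1% of WT. Over all genes, 8.23% had all KO libraries below all WT libraries and 16.3% had groups that did not overlap in either direction, the other 8.03% being higher in KO. The log2 fold change was -1.64 ± 0.25 (SE, 95% confidence interval -2.19 to -1.08, edgeR adjusted p = 0.0187), and the exact two-sided permutation test gave 0.1, the smallest p that 3 against 3 libraries allow. The spread between libraries, a CV of 11.1% in WT and 13.9% in KO, was no wider than the 11.7% and 20.9% that counting alone gives at these counts.

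The *Itga4* call depends on the tool and the filter, although its size hardly moves. With limma-voom the adjusted p was 0.0647, with filterByExpr it was 0.0502 and with DESeq2 0.000115, while the log2 fold change stayed between -1.65 and -1.62 in 7 alternatives and between -1.74 and -1.54 with 1 library left out. The call was lost without WT c (adjusted p = 0.244), KO a (0.182) or KO c (0.0995), in fits of edgeR with 5 libraries. Without WT b *Itga4* remained called, at -1.54 ± 0.25 (SE, edgeR adjusted p = 0.0331). *Cerkl*, which overlaps *Itga4* on the opposite strand, had counts of 10, 32 and 19 in WT and 6, 11 and 15 in KO (log2 fold change -0.89 ± 0.50, SE, edgeR adjusted p = 0.556). The reads were counted by strand.

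Since α4 is also carried by other cells, their markers are given beside this result. Summed immune markers overlapped, at 6.05 to 11.4 CPM in WT and 6.33 to 10.2 CPM in KO, and the pan-leukocyte gene *Ptprc* was at 0.376 ± 0.105 CPM in WT and 0.391 ± 0.230 CPM in KO (SD, n = 3). Summed melanocyte markers were at 6.93 to 14.4 CPM in WT and 11.6 to 12.7 CPM in KO. Summed endothelial markers did not overlap, with 5.73 to 8.72 CPM in WT and 3.70 to 5.07 CPM in KO (exact two-sided permutation p = 0.1), and *Tek*, the angiopoietin receptor, made up the largest part of the WT mean. Its level was 3.72 ± 1.54 CPM in WT and 1.32 ± 0.24 CPM in KO (SD, n = 3, log2 fold change -1.49, edgeR adjusted p = 0.0708), whereas *Cdh5* and *Emcn*, which define endothelium, were at or under the floor in all 6 libraries. *Pecam1*, another endothelial marker, had the opposite order, with 1.14 ± 0.24 CPM in WT, 1.78 ± 0.12 CPM in KO and every KO library above every WT library (log2 fold change 0.64, edgeR adjusted p = 0.411). The part of these cells in the *Itga4* result was not tested.

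*Itga5* (ENSMUSG00000000555, chromosome 15, 103344289 to 103366763) encodes α5, the partner of β1 in the classical fibronectin receptor. It was measured at 19.96, 20.9 and 16.7 CPM in WT and at 14.6, 20.03 and 18.8 CPM in KO. The groups overlapped, with KO a the lowest and KO b close to the WT values. KO differed from WT by a log2 fold change of -0.11 ± 0.15 (SE, edgeR adjusted p = 0.786), and without KO a its sign turned (0.016).

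*Itga8* (ENSMUSG00000026768, chromosome 2, 12106632 to 12301920) encodes α8, the nephronectin receptor chain. It had 0.826, 3.34 and 2.69 CPM in WT and 4.38, 2.30 and 4.88 CPM in KO, from counts of 18, 73 and 61 against 103, 49 and 101. KO a and c lay above every WT library, but KO b lay among them and WT a was far below the rest. The log2 fold change of 0.75 ± 0.42 (SE, 95% confidence interval -0.17 to 1.67, edgeR adjusted p = 0.555) did not pass, and the CV between libraries was 57.1% in WT and 35.6% in KO, where counting alone gives 14.05% and 10.9%. Without WT b it was 1.12 ± 0.45 (SE, edgeR adjusted p = 0.421). Smooth muscle and pericyte markers summed to 5.50 to 8.90 CPM in WT and 7.06 to 11.8 CPM in KO (exact two-sided permutation p = 0.3). None of the 7 tested was called or had groups apart. *Cnn1*, the most abundant, was at 4.35 ± 2.35 CPM in WT and 4.93 ± 1.62 CPM in KO, and *Acta2* at 1.23 ± 0.50 and 1.52 ± 0.37 CPM. *Tagln* was at 0.875 ± 0.436 CPM in WT and 2.27 ± 1.06 CPM in KO. *Myh11* was at 0.076 ± 0.13 and 0.078 ± 0.058 CPM, and *Pdgfrb* at 0.456 ± 0.333 and 0.366 ± 0.0327 CPM (SD, n = 3). *Des* and *Myocd* were at or under the floor in every library. The part of muscle cells in the *Itga8* values was not tested.

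*Itga9* (ENSMUSG00000039115, chromosome 9, 118606690 to 118901003) encodes α9, a receptor chain for tenascin and the EDA form of fibronectin that is known from keratinocytes. The table lists 4 counts in KO a and 0 in each of the other 5 libraries, so α9 transcript was not detectable at this depth in 5 of the 6, where 0 counts allow up to 0.145 CPM. No fold change is given for it.

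The collagen receptor chains were lower in the mean of KO without passing the test. *Itga1* (ENSMUSG00000042284, chromosome 13, 114958079 to 115101964) encodes α1, which prefers collagen IV, and it was measured at 6.10, 15.8 and 8.77 CPM in WT against 5.53, 5.82 and 6.92 CPM in KO. WT b was the high library, and WT a lay within the KO range. This gave a log2 fold change of -0.75 ± 0.29 (SE, 95% confidence interval -1.38 to -0.12, edgeR adjusted p = 0.325), with a CV of 49.0% in WT against 12.1% in KO. It passed the threshold only where WT a was left out (-1.01, edgeR adjusted p = 0.0422), and without WT b, the high library, the value was -0.29 ± 0.20 (SE, edgeR adjusted p = 0.747). Within the *Itga1* gene lies *Pelo* on the same strand, which had counts of 377, 258 and 385 in WT and 419, 306 and 360 in KO, and 685 exonic bases of *Itga1* are shared with *Pelo* or another gene of that strand in the reference annotation, where reads could not be assigned to 1 gene.

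*Itga2* (ENSMUSG00000015533, chromosome 13, 114835916 to 114932041) encodes α2, the main collagen receptor chain of keratinocytes and a neighbour of *Itga1* on the chromosome. It was measured at 49.0, 39.8 and 51.4 CPM in WT and 29.2, 40.8 and 37.97 CPM in KO. KO b was above WT b, so the groups overlapped by that pair of libraries alone. With a log2 fold change of -0.38 ± 0.14 (SE, 95% confidence interval -0.69 to -0.07, edgeR adjusted p = 0.308), *Itga2* did not pass, and it was not called in any of the 7 alternatives or with any library left out (-0.48 without WT b, edgeR adjusted p = 0.192).

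**Figure D2:**
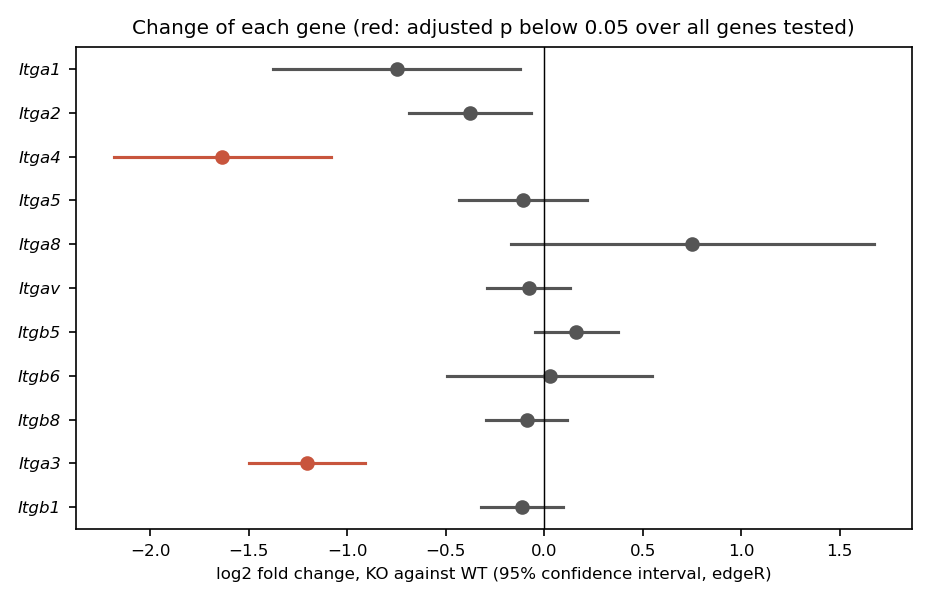
Log2 fold change of KO against WT with its 95% confidence interval (edgeR) for 9 of the 10 genes and for *Itga3* and *Itgb1*. *Itga9* is left out because WT had no counts. *Itga4* (-1.64) and *Itga3* (-1.20), in red, passed at an adjusted p below 0.05, and the intervals of *Itga5*, *Itga8*, *Itgav*, *Itgb5*, *Itgb6*, *Itgb8* and *Itgb1* cross 0.

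None of the genes of the αv receptors passed the test. *Itgav* (ENSMUSG00000027087, chromosome 2, 83724397 to 83806916) was measured at 203, 190 and 204 CPM in WT and 168, 201 and 195 CPM in KO. KO a was the lowest and the other KO libraries lay within the WT range. Its log2 fold change was -0.08 ± 0.10 (SE, edgeR adjusted p = 0.741), and the 95% confidence interval reached from -0.29 to 0.13.

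*Itgb5* (ENSMUSG00000022817, chromosome 16, 33829665 to 33949153) encodes β5, which with αv forms a vitronectin receptor. It was measured at 113, 129 and 134 CPM in WT and 132, 138 and 150 CPM in KO. WT c was above KO a, so the groups overlapped, although the other libraries were ordered by genotype. On the log2 scale KO was higher in the mean by 0.16 ± 0.10 (SE, 95% confidence interval -0.05 to 0.37, edgeR adjusted p = 0.577).

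*Itgb6* (ENSMUSG00000026971, chromosome 2, 60598292 to 60722643) encodes β6, an epithelial chain whose dimer with αv activates latent TGF-β. It was measured at 96.5, 59.2 and 47.2 CPM in WT and 49.1, 82.6 and 75.2 CPM in KO, so that WT a was the highest and WT c the lowest of all 6 libraries. Its log2 fold change was 0.03 ± 0.24 (SE, 95% confidence interval -0.49 to 0.55, edgeR adjusted p = 0.992), and its direction depended on single libraries. It turned negative without WT b (-0.06), WT c (-0.18), KO b (-0.11) or KO c (-0.04), and it was 0.38 without WT a.

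*Itgb8* (ENSMUSG00000025321, chromosome 12, 119158022 to 119238802) encodes β8, whose dimer with αv also activates latent TGF-β. It was measured at 134, 142 and 162 CPM in WT and 141, 136 and 136 CPM in KO, so all KO libraries lay within the WT range. The log2 fold change was -0.09 ± 0.09 (SE, 95% confidence interval -0.30 to 0.12, edgeR adjusted p = 0.698). For *Itgav*, *Itgb5* and *Itgb8* the intervals leave room for changes of at most 0.37 on the log2 scale in either direction. Without WT b, *Itgav* was at -0.11, *Itgb5* at 0.18, *Itgb8* at -0.11 and *Itga5* at -0.04 on that scale, and none of them passed (edgeR adjusted p of 0.772, 0.639, 0.772 and 0.957).

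The levels of different genes were compared per length, as CPM per kb of exon. *Itgb5* was the highest at 37.3 (31.9 to 42.3 over the 6 libraries), followed by *Itgav* at 18.0 (15.7 to 19.0), *Itgb8* at 12.8 (12.1 to 14.7), *Itgb6* at 9.60 (6.64 to 13.6), *Itga2* at 5.80 (4.09 to 7.21) and *Itga5* at 3.75 (2.96 to 4.23). Far lower came *Itga1* at 0.439 (0.297 to 0.850), *Itga8* at 0.417 (0.112 to 0.663) and *Itga4* at 0.156 (0.0669 to 0.265) CPM per kb, and *Itga9* was last. The ranges of neighbours were apart at 4 of the 9 steps, which were *Itgb5* over *Itgav*, *Itgav* over *Itgb8*, *Itga5* over *Itga1* and *Itga4* over *Itga9*. *Itgb8*, *Itgb6*, *Itga2* and *Itga5* overlapped each with the next, as did *Itga1*, *Itga8* and *Itga4*. On CPM without division by length *Itgav* came first, followed by *Itgb8* and then *Itgb5*.

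**Figure D3:**
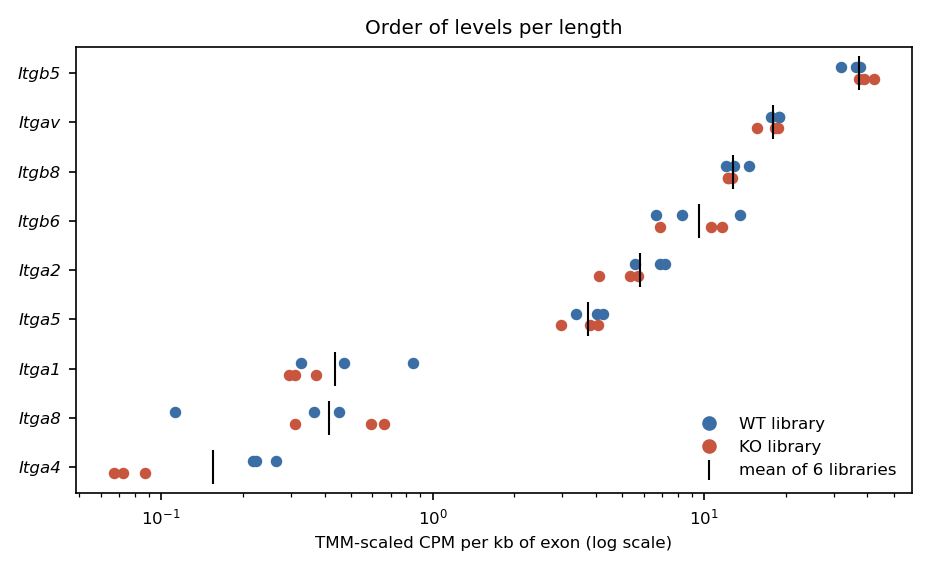
Level per length (TMM-scaled CPM per kb of exon, log axis) of 9 genes in the 3 WT and 3 KO libraries, with the mean of all 6 as a tick. *Itga9*, at 0 in 5 libraries, is left out. *Itgb5* at 37.3 and *Itgav* at 18.0 lead, and *Itga1*, *Itga8* and *Itga4* lie below 1 in every library.

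The partner of most of these alpha chains, *Itgb1*, was at 94.1 CPM per kb over the 6 libraries and did not pass the test, with 399 ± 29.3 CPM in WT and 369 ± 20.01 CPM in KO (SD, n = 3, log2 fold change -0.11 ± 0.10, SE, edgeR adjusted p = 0.681). The 7 alpha chain genes summed to 30.0 ± 0.87 CPM per kb in WT and 27.1 ± 2.97 CPM per kb in KO (SD, n = 3, exact two-sided permutation p = 0.2). With *Itga3* added, the sum was 82.3 ± 11.7 in WT and 49.8 ± 2.78 in KO (p = 0.1 in the same exact test). The 3 RGD-binding beta chain genes summed to 58.0 ± 0.83 CPM per kb in WT and 61.5 ± 4.24 CPM per kb in KO (exact permutation p = 0.4).

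Shares were taken within *Itga3* and the 7 alpha chain genes, which leaves out *Itga6*, the α6 laminin receptor chain and the most abundant alpha chain gene at 80.4 CPM per kb. Of this sum of 8 genes *Itga3* took 68.1%, 60.4% and 60.8% in WT and 49.2%, 42.6% and 45.2% in KO. *Itgav* took 19.8%, 24.1% and 24.3% in WT and 33.6%, 36.7% and 35.1% in KO. Neither share overlapped between the genotypes, and for both the exact permutation p was 0.1, the smallest possible, and 0.275 adjusted over the 11 shares compared. The *Itgav* share was 12.4 percentage points higher in KO, while *Itgav* itself stood at 94.6% of its WT mean. When *Itga3* was left out of the sum, a choice made after seeing the data, the *Itgav* share was 61.6% ± 0.68 in WT and 64.7% ± 1.19 in KO (SD, n = 3). The groups were still apart (exact permutation p = 0.1). Among all 18 alpha chain genes tested, another choice made after seeing the data, *Itga6* took 49.4% ± 1.56 in WT and 60.2% ± 3.59 in KO, *Itga3* took 31.2% ± 2.91 and 17.4% ± 1.54, and *Itgav* took 11.2% ± 1.07 and 13.4% ± 1.36 (SD, n = 3). The *Itgav* share then overlapped between the genotypes (exact permutation p = 0.2). *Itga4* took 0.292% ± 0.065 of the sum of 8 genes in WT and 0.152% ± 0.017 in KO. *Itga5* took 4.78% ± 0.86 of it in WT and 7.23% ± 0.82 in KO. Neither overlapped between the genotypes (exact permutation p = 0.1, and 0.275 adjusted, for each). When *Itga3* was left out of the sum, *Itga5* took 13.0% ± 1.78 in WT and 13.3% ± 0.71 in KO, with overlap (exact permutation p = 0.8). In that sum *Itga4* took 0.786% ± 0.11 in WT and 0.279% ± 0.02 in KO and stayed apart (SD, n = 3, exact permutation p = 0.1). With overlap, the mean shares of *Itga2* (8.01% and 10.1%) and *Itga8* (0.401% and 1.06%) were also higher in KO, and that of *Itga1* (0.702% and 0.657%) was lower. Without *Itga3* in the sum the direction of *Itga2* turned, with 21.8% in WT and 18.5% in KO. *Itga8* stayed higher in KO (1.04% and 1.97%) and *Itga1* lower (1.85% and 1.21%), all with overlap.

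**Figure D4:**
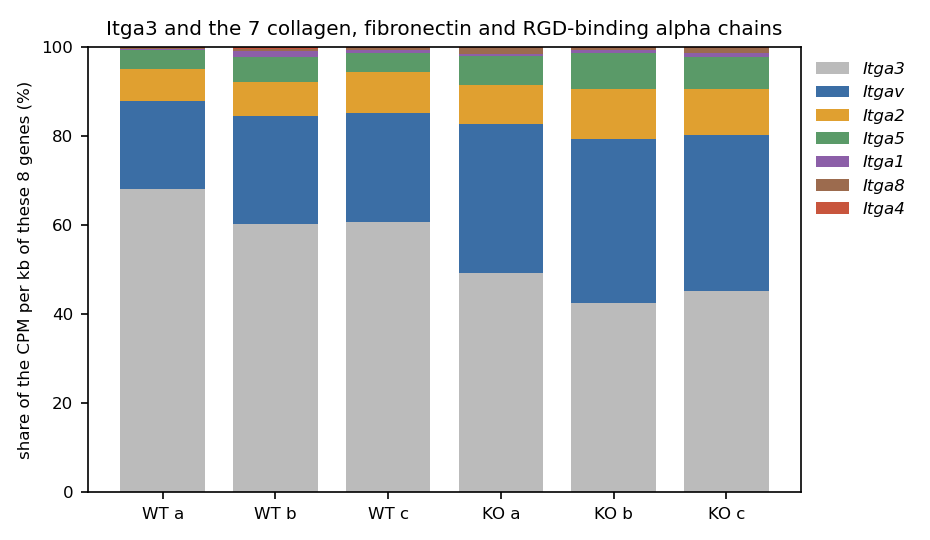
Share (%) of the summed CPM per kb of *Itga3* and the 7 alpha chain genes in each library, *Itga6* not included. *Itga9* is too small to show. *Itga3* (grey) takes 60.4% to 68.1% in WT and 42.6% to 49.2% in KO, and *Itgav* (blue) takes 19.8% to 24.3% in WT and 33.6% to 36.7% in KO.

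Among the RGD-binding beta chains, *Itgb5* took 60.8% ± 4.66 of the sum in WT and 64.1% ± 1.97 in KO, *Itgb6* took 16.4% ± 6.38 and 15.6% ± 3.24, and *Itgb8* took 22.8% ± 1.98 and 20.3% ± 1.86 (SD, n = 3 each). All 3 shares overlapped between the genotypes (exact permutation p of 0.4, 0.9 and 0.2). *Itgb6* had the widest spread, from 11.3% in WT c to 23.6% in WT a.

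Few genes of the ligands of these receptors passed the test. Of 19 tested ligands of the fibronectin, RGD and α4/α9 receptors none passed the edgeR test, and 1 was lower and 1 higher in KO without overlap of the groups (background 8.23% and 8.03%). The higher one, *Spp1*, lay under the floor, with counts of 1, 0 and 1 in WT and 2, 1 and 2 in KO. The median log2 fold change of this list was -0.19, and -0.20 with genes at 0 in one group set to their bound. *Fn1*, which encodes fibronectin, was at 85.3 ± 32.2 CPM in WT and 55.8 ± 4.14 CPM in KO (SD, n = 3, log2 fold change -0.61, edgeR adjusted p = 0.265). The most abundant members were *Postn*, which encodes periostin, at 5672 ± 2037 CPM in WT and 3186 ± 340 CPM in KO (-0.83, edgeR adjusted p = 0.124), and *Thbs1*, which encodes thrombospondin-1, at 1044 ± 148 CPM and 744 ± 160 CPM (-0.49, adjusted p = 0.206). *Npnt*, the gene of the α8 ligand nephronectin, was at 349 ± 81.6 CPM in WT and 305 ± 36.2 CPM in KO (-0.19, edgeR adjusted p = 0.671).

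Of 13 tested ligands of α1 and α2, collagens and laminin chains among them, 1 was higher and none lower by the edgeR test, with a median log2 fold change of 0.30. Of all genes 0.461% were called higher and 0.212% lower. Without overlap of the groups 3 of the 13 were higher and 3 lower in KO (8.03% and 8.23% of all genes). The one called was *Lamb1*, the laminin β1 chain, which rose from 37.1 ± 2.12 to 61.4 ± 10.3 CPM (SD, n = 3, log2 fold change 0.73 ± 0.12, SE, edgeR adjusted p = 0.0255) and did not pass with limma-voom (adjusted p = 0.105). The type I collagen genes had the largest negative values, *Col1a2* with 61.9 ± 10.1 CPM in WT and 27.3 ± 10.6 CPM in KO (-1.18, edgeR adjusted p = 0.0555) and *Col1a1* with 85.4 ± 41.8 CPM and 37.5 ± 9.82 CPM (-1.19, adjusted p = 0.127). Without WT b *Col1a1* passed (-1.53, edgeR adjusted p = 0.0109), *Col1a2* did not (-1.05, adjusted p = 0.141), and *Lamb1* stayed at the threshold (0.74, adjusted p = 0.0499). *Col6a1*, at 499 ± 6.86 CPM in WT and 417 ± 90.8 CPM in KO, and *Hspg2*, which encodes perlecan, at 225 ± 18.5 CPM and 277.5 ± 73.4 CPM, were the most abundant and did not pass (edgeR adjusted p of 0.537 and 0.514). Summed fibroblast markers, which include both type I collagen genes, were at 337 to 459 CPM in WT and 242 to 343 CPM in KO, with *Lum* at or under the floor in all 6 libraries. *Col3a1*, a collagen gene of both lists, had counts of 0, 0 and 0 in WT and 3, 0 and 29 in KO (edgeR adjusted p = 0.263). Of the other fibroblast markers, *Thy1* (74.7 ± 14.4 CPM in WT and 38.5 ± 14.5 CPM in KO) and *Pdgfra* (1.02 ± 0.32 and 0.414 ± 0.129 CPM) were lower in every KO than in every WT library. *Fbln1* was at 193 ± 28.4 and 199 ± 23.1 CPM, and *Dcn* was higher in the mean of KO (1.03 ± 0.59 and 3.70 ± 1.98 CPM, SD, n = 3). None of these 4 passed (edgeR adjusted p of 0.112, 0.203, 0.922 and 0.113), and the part of fibroblasts in the collagen values was not tested.

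Since αvβ6 and αvβ8 act on latent TGF-β, the genes of that pathway were read from the same fit. None of 12 genes of TGF-β ligands, their latency proteins and receptors passed (median log2 fold change 0.02). Without overlap of the groups 2 of them were higher and 2 lower in KO (8.03% and 8.23% of all genes). *Ltbp2*, which encodes a latent TGF-β binding protein, was at 517 ± 30.4 CPM in WT and 311 ± 91.2 CPM in KO (SD, n = 3, -0.73, edgeR adjusted p = 0.0843), and *Ltbp4* and *Ltbp3*, the other abundant members, had log2 fold changes of -0.18 and -0.05. Of 12 TGF-β response genes, edgeR called 2 higher and 1 lower in KO (0.461% and 0.212% of all genes), with a median of 0.28. Without overlap of the groups 6 of the 12 were higher and 2 lower in KO, against 8.03% and 8.23% of all genes. *Ctgf*, a matricellular protein gene that other pathways also control, fell from 725 ± 124 to 245 ± 32.0 CPM (-1.56 ± 0.14, SE, edgeR adjusted p = 0.00054). *Pmepa1*, a feedback inhibitor of TGF-β signaling, rose from 46.4 ± 9.38 to 93.7 ± 17.9 CPM (1.01 ± 0.16, SE, edgeR adjusted p = 0.0222), and *Bhlhe40*, a transcription factor, from 141 ± 13.8 to 215 ± 28.0 CPM (0.61 ± 0.11, SE, edgeR adjusted p = 0.0416). *Tgfbi*, a secreted matrix protein with integrin-binding motifs and the most abundant of the list, was at 1307 ± 22.6 CPM in WT and 1043 ± 95.8 CPM in KO (-0.33, edgeR adjusted p = 0.201). With limma-voom only *Ctgf* of these 12 passed, and without WT b all 3 stayed called (edgeR adjusted p of 8.6e-05 for *Ctgf*, 0.0326 for *Pmepa1* and 0.0326 for *Bhlhe40*).

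Among the genes of proteins that switch integrins on or off, none of 17 passed the edgeR test, and the median log2 fold change was 0.02. Without overlap of the groups 2 of the 17 were higher and 3 lower in KO (8.03% and 8.23% of all genes). *Flna*, which encodes filamin A, was at 817 ± 122 CPM in WT and 868 ± 112 CPM in KO, and *Kank1*, whose product binds talin, was at 433 ± 69.8 CPM and 346 ± 27.9 CPM (SD, n = 3, edgeR adjusted p of 0.810 and 0.307). Among 16 other integrin subunit genes, *Itga3* alone passed and alone had groups that did not overlap. The most abundant of these, *Itgb4* and *Itga6*, which together form the laminin receptor of hemidesmosomes, had log2 fold changes of -0.15 and -0.06. Across the 6 lists, edgeR called 5 genes, *Itga3*, *Ctgf*, *Lamb1*, *Pmepa1* and *Bhlhe40*, and limma-voom called 2, *Itga3* and *Ctgf*.

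**Figure D5:**
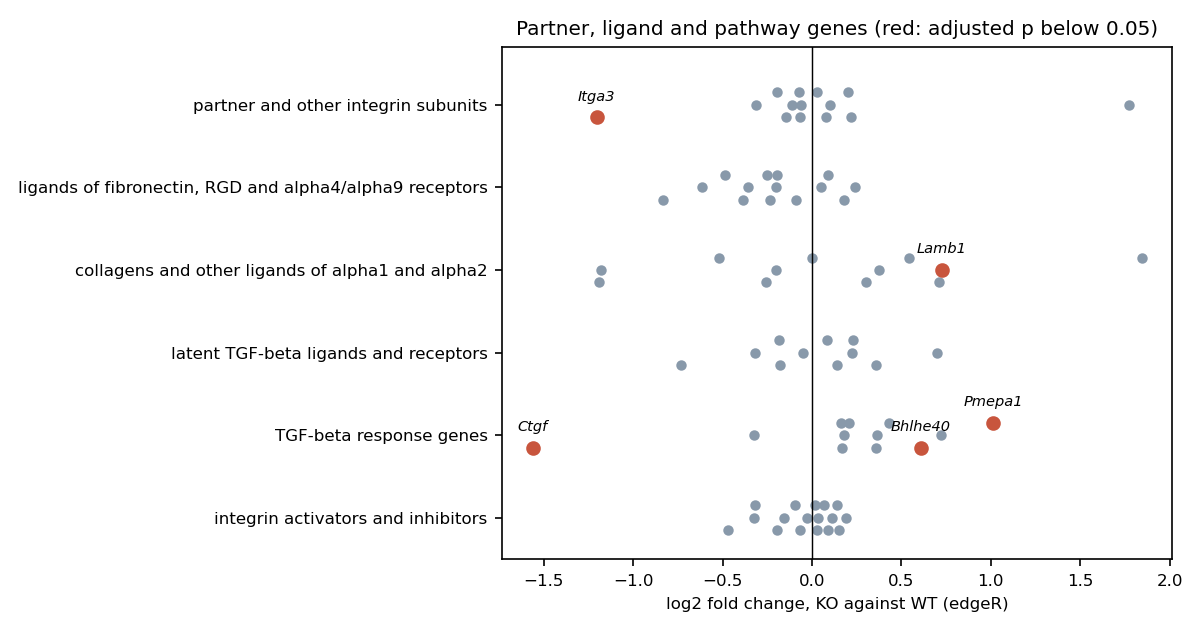
Log2 fold change of KO against WT (edgeR) for the genes of 6 lists, 1 point per gene, vertical offsets for legibility only. Genes with no counts in one group or at most 3 counts in every library are left out. Red points with names passed at an adjusted p below 0.05: *Itga3* (-1.20) and *Ctgf* (-1.56) were lower, and *Lamb1* (0.73), *Bhlhe40* (0.61) and *Pmepa1* (1.01) were higher in KO.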

How the data were processed

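RNA-seq counts from 3 WT and 3 KO libraries were analysed. The authors prepared stranded libraries from polyadenylated RNA, sequenced 65-base single reads, and aligned them to GRCm38 with TopHat 2.1.0 (Bowtie 1.1) and gene models of Ensembl version 77. The deposited values are raw counts per gene of uniquely mapped reads, assigned by strand with a script of the authors. The study sorted cells from 3 mice per genotype, so p-values measure the spread between these libraries of separate mice. The labels name no batch and no sex, and the sex-linked transcripts of WT b differed from those of the other 5. No pair of libraries agreed within counting error (smallest chi-square per degree of freedom 7.93).

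The 21681 of 22295 genes that had any count were tested with edgeR 4.0.16 in R 4.3.3 (TMM, glmQLFit, glmQLFTest, genotype only) with Benjamini-Hochberg adjustment over all of them, and called at an adjusted p below 0.05. The alternative tools were DESeq2 1.42.0 and limma-voom (limma 3.58.1), the latter scaled by TMM or by library size alone. The alternative scalings of edgeR were upper-quartile factors and library size alone. Stricter filters were filterByExpr, which kept 13811 genes, and a minimum of 10 counts in all 6 libraries, which kept 13054. Each library was also left out in turn. For single values an exact permutation test, two-sided, was run over libraries (smallest possible p 0.1). Exon lengths were taken from GENCODE release M21, which held 98.85% of the gene identifiers, and the table's own coordinates are given. Of the genes it held, 70.11% had the same coordinates as in the count table. *Itga1*, *Itga2*, *Itga5*, *Itga8* and *Itgb5* did not, so their lengths may differ from those of the gene models counted. Promoter windows from RefSeq were matched to all 10 genes by symbol, not by the coordinates of the count table.

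The genes, lists and tests were chosen with earlier results of these data known. The text names all 10 genes, *Itga3*, *Itgb1*, and from each list the genes called and the 2 with the highest level. *Xist*, the Y-linked genes, *Pecam1*, *Thy1*, *Pdgfra*, *Dcn*, *Fbln1*, *Tagln*, *Pdgfrb*, *Spp1*, *Fn1*, *Npnt*, *Col1a1*, *Col1a2*, *Ltbp2*, *Ptprc*, *Tek*, *Cdh5*, *Emcn*, *Lum*, *Cerkl* and *Pelo* were named after their values were seen. The same holds for *Col3a1*, *Cnn1*, *Acta2*, *Myh11*, *Des* and *Myocd*. *Ibsp* and *Col13a1* of the lists had no counts.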

Additional observations from a re-analysis of the deposited data

How the results depend on the processing

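The direction of the 9 log2 fold changes given held in all 7 alternatives of tool, scaling and filter, and the calls did not. All genes called numbered 546 with DESeq2, 28 and 24 with limma-voom (library size only and TMM), 15 with filterByExpr and 12 with a minimum of 10 counts per library, against 146, and 5 to 521 with 1 library left out. Of the 10 integrin genes, 0 were called with filterByExpr, with the minimum of 10 counts and with either limma-voom fit, where 2 (*Itga2* and *Itga4*) had an unadjusted p below 0.05, and 0 to 2 with 1 library left out. In the limma-voom fits 2553 (TMM) and 2545 (library size only) of all 21681 genes had an unadjusted p below 0.05. *Itga1* joined *Itga4* without WT a, where 521 genes were called, and none passed without WT c (5 genes), KO a (10) or KO c (30). Genes called in the 6 lists numbered 11 with DESeq2 and 2 with filterByExpr, the minimum of 10 counts and both limma-voom fits, against 5, and 0 (without WT c) to 8 (without WT a or KO b) with 1 library left out. The log2 fold change of *Itga5* ranged from -0.20 to 0.016 and that of *Itgb6* from -0.18 to 0.38 with 1 library left out. The difference in the *Itgav* share, 12.4 percentage points, was 3.12 without *Itga3* in the sum and 2.24 with all 18 alpha chain genes in it. The order of levels had 5 steps without overlap, against 4, on CPM without length, where *Itgav* and *Itgb8* came before *Itgb5*, and on the longest transcript. Shares and order change by definition with the genes summed and the length used. The cause of the differences in calls and fold changes was not tested. No paired analysis was possible because the columns of the count table carry no numbers that match those of the labels. Depth limits *Itga9* most, followed by *Itga4*, whose KO libraries rest on 21 to 26 counts each.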
